A study of Mus musculus with 16 samples.

Results

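Ebf1, Ebf2, Ebf3, Prrx1, Prrx2, Twist1, Twist2 and Tcf21 are 8 transcription factor genes of mesenchyme that were followed across 4 sorted populations of mouse colon fibroblasts. They were selected on family and role with the differences between populations on these same 16 arrays in view. Their levels and differences between populations are therefore a description, and none is given a p-value. All 18 probe sets that carry only one of these gene symbols were taken, of 45141 on the array, and the 8 genes are part of 17097 measured genes. Ebf1, Ebf2 and Ebf3 had 3 probe sets each, Prrx1 had 5, and the remaining genes had 1 each. No probe set shared with another gene carried a member. The animals were 4 C57BL/6 mice of the genotype Gli1CreERT2-ZsGreen, each given 1 mg tamoxifen intraperitoneally on 5 days, with colons taken on day 6. Fibroblasts, gated as Epcam-CD45-CD31-gp38+, were divided by Sca1, a surface protein, and by ZsGreen, a green reporter. The populations were Sca1+ ZsGreen-high (reporter-high), Sca1+ ZsGreen-dim (reporter-dim), Sca1+ ZsGreen-negative (Sca1+ reporter-negative) and Sca1- ZsGreen-negative cells (Sca1- reporter-negative), with 4 arrays each, 1 per mouse. All populations thus came from tamoxifen-treated carriers of the same alleles, and no untreated or reporter-free animal is among them. The reporter marks cells in which CreERT2, driven from Gli1, was active while tamoxifen was present, so it records that window and not the Gli1 level at sorting. The sources used here give neither ages nor sexes.

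The EBF proteins are helix-loop-helix transcription factors first studied in B cell development, and in stroma they act in bone marrow reticular cells and in the adipose lineage. Prrx1 and Prrx2 are paired-type homeobox factors of limb, craniofacial and other embryonic mesenchyme, with overlapping functions. Twist1, Twist2 and Tcf21 are basic helix-loop-helix factors that bind E-boxes as dimers with E proteins. Tcf21 is needed for the mesenchyme of lung, kidney and spleen and for fibroblasts of the heart. Gli1, whose locus names the reporter, is a transcriptional effector and target of hedgehog signalling, which gut epithelium sends to the underlying stroma.

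The 250 bases before the start site are printed for 4 genes: Ebf3 and Prrx1, which were highest in Sca1+ reporter-negative cells, and Prrx2 and Tcf21, which were higher in both reporter-positive populations. The windows come from RefSeq on GRCm38.p6, at chr7:137314446-137314695 on the minus strand for Ebf3, chr1:163313651-163313900 on the minus strand for Prrx1, chr2:30845117-30845366 on the plus strand for Prrx2, and chr10:22820144-22820393 on the minus strand for Tcf21. Each runs 5′ to 3′ with the start site after its last base, and capitals mark matches on either strand to the 4 motifs searched. These were the E-box core CANNTG, the EBF core CCCNNGGG, the homeodomain core TAATT and the GLI core CCACCCA.
Ebf3: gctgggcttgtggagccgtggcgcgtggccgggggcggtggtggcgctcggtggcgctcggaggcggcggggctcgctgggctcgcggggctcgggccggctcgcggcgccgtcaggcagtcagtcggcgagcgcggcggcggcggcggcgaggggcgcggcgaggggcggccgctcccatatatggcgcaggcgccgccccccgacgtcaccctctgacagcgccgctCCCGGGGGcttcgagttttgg
Prrx1: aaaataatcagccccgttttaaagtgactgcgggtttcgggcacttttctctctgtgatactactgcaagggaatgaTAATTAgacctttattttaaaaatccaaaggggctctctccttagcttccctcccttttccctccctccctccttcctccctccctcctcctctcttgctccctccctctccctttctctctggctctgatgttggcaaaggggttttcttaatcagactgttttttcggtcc
Prrx2: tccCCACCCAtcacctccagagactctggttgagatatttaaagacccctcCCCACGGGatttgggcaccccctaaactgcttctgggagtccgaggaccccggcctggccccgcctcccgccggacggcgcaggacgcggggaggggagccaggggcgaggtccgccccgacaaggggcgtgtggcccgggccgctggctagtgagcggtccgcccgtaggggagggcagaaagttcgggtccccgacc
Tcf21: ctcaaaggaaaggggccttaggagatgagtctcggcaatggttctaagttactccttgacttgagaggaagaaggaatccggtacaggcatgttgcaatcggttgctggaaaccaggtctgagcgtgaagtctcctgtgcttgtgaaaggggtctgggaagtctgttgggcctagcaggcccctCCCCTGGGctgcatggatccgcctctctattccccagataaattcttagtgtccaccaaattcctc

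The Ebf3 window held 1 EBF core, at position -21 from the start site, and the Tcf21 window held 1, at position -66. The Prrx2 window held an EBF core at position -199 and the only GLI core among the members, at position -247. The Prrx1 window held neither, but had 2 overlapping homeodomain cores, 1 on each strand, that share the capitals TAATTA. Windows were found for 7 of the 8 genes, Ebf2 being the exception, and Ebf1 had more than 1, which gives 8 windows. The Twist2 window also held an EBF core, at position -135, and the Twist1 window held none of the 4 motifs. An E-box was present in 66.2% of 32851 windows of the same length over all genes, an EBF core in 11.8%, a homeodomain core in 25% and a GLI core in 8.11%. Among the members' windows, an E-box was found in only 1, a second Ebf1 window, at position -108. A match is a run of letters and was not tested as a binding site.

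Array medians lay between 662 and 687, and the highest of 23 nonspecific control probe sets lay between 234 and 488 per array, which serves as array background. Pdpn, which encodes gp38, averaged 7494 in reporter-high cells, 6523 in reporter-dim cells, 3833 in Sca1+ reporter-negative cells and 2196 in Sca1- reporter-negative cells. Epcam, although the sort excluded it, averaged 3472, 10281, 17885 and 17339 in the same order, and all 17 measured genes of an epithelial list were above background in each population. The 4 arrays of mouse 2 did not match one another in Xist, the transcript of the inactive X chromosome. It read 487 in reporter-high and 424 in reporter-dim cells, against 18116 in Sca1+ and 19209 in Sca1- reporter-negative cells. The mismatch thus runs along the reporter contrast, and its part in the differences was not tested. The arrays of every other mouse were alike, low for mouse 1 and high for mice 3 and 4. Mouse numbers, and counts of mice in a direction, follow the labels. The mouse 1 arrays of both reporter-negative populations, the only ones there with low Xist, also stood apart. Their correlations with the other arrays of their population averaged 0.980 in Sca1+ and 0.970 in Sca1- cells, the lowest of the 16, and their mean log2 signal over shared fibroblast genes was 14.34 and 14.18, the highest of each population. For Ebf1, Ebf3, Prrx1 and Tcf21, some values without 1 of these arrays are given below.

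The 8 genes fell into 3 patterns over the populations. In Sca1+ reporter-negative cells Ebf2, Ebf3 and Prrx1 were highest, at all 10 of their probe sets above background by mean and in each of the 4 mice at the highest probe set. Twist1, Twist2, Tcf21 and Prrx2 were higher in reporter-high and reporter-dim cells than in Sca1+ reporter-negative cells, as Gli1 itself was. Among them Prrx2 had the smallest difference in reporter-high cells, and its larger step was from Sca1- to Sca1+ reporter-negative cells. Ebf1 was high in all 3 Sca1+ populations and lowest in Sca1- cells. In sorted bulk samples, fewer cells that express a gene and less RNA of it per cell cannot be told apart.

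**Figure D1:**
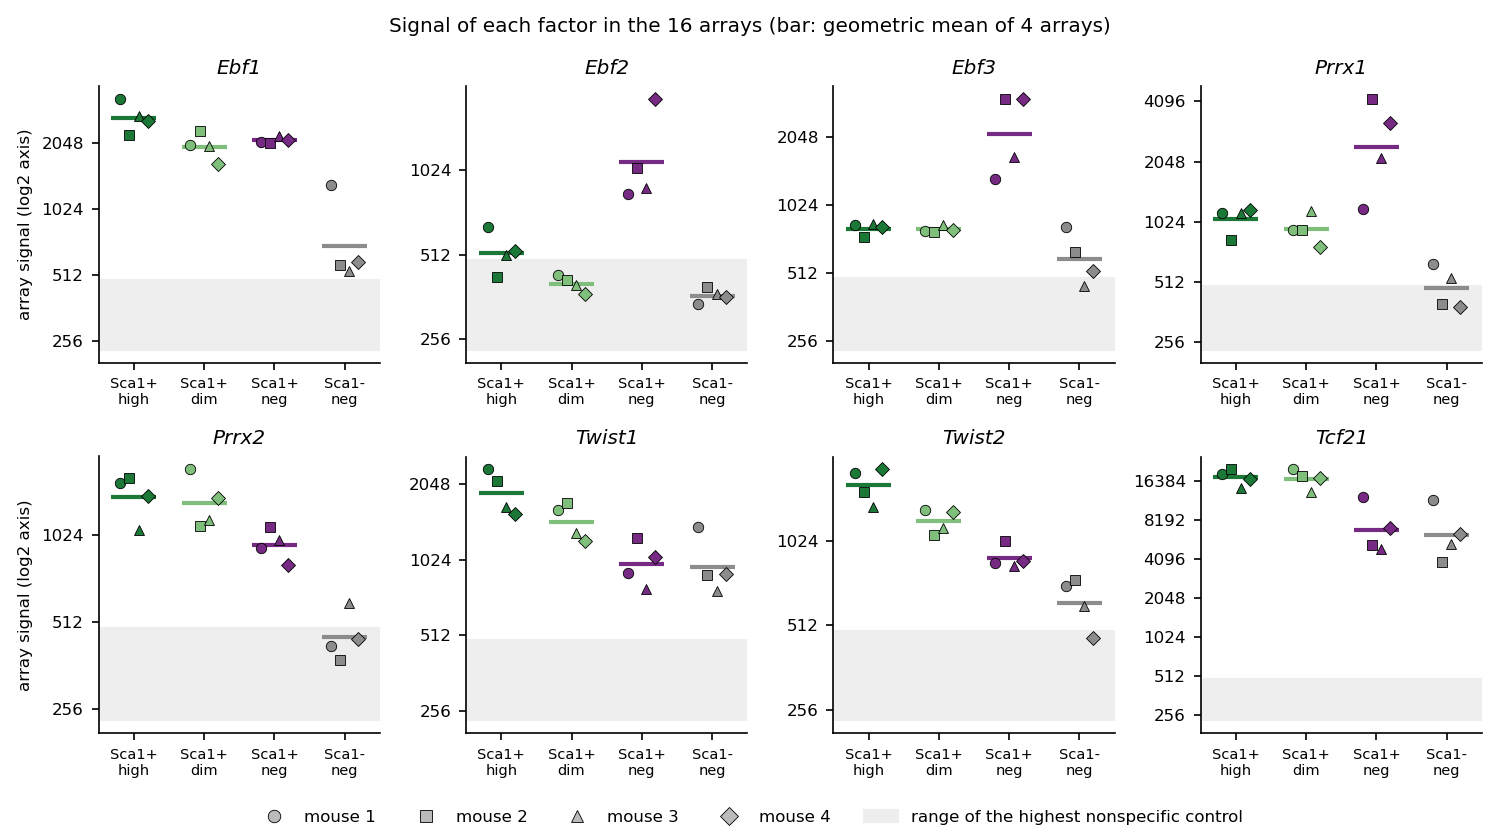
Signal of the highest probe set of each gene (y axis, log2 scale) on the 16 arrays, by population, with 1 symbol per mouse and a bar at the geometric mean of 4 arrays; grey marks the range of the highest nonspecific control, 234 to 488. Ebf2, Ebf3 and Prrx1 peak in Sca1+ reporter-negative cells, while Twist1, Twist2 and Tcf21 are higher in the reporter-positive populations.

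Among the EBF genes, Ebf1 had signals of 3264, 2226, 2705 and 2568 in reporter-high cells of mice 1 to 4, 2011, 2313, 1978 and 1651 in reporter-dim cells, 2064, 2042, 2208 and 2106 in Sca1+ reporter-negative cells, and 1315, 572, 533 and 588 in Sca1- reporter-negative cells. Every Sca1+ array exceeded every Sca1- array, and the Sca1- array of mouse 1 lay far above the other 3 of its population. The order ran reporter-high, Sca1+ reporter-negative, reporter-dim, Sca1- reporter-negative; the reporter-dim range overlapped those of the other Sca1+ populations, whose own ranges lay just apart. The log2 difference was 1.59 ± 0.22 (SE from the fit to all 16 arrays, limma) for Sca1+ over Sca1- reporter-negative cells, a 3.02-fold higher signal, and 1.90 without the mouse 1 Sca1- array. Reporter-high cells were 0.34 ± 0.22 above Sca1+ reporter-negative cells, in 4 of 4 mice, and reporter-dim cells differed from Sca1+ reporter-negative cells by -0.09 ± 0.22.

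Ebf2, which in adipose tissue marks brown and beige precursors, had signals of 639, 427, 508 and 528 in reporter-high cells, 431, 414, 400 and 370 in reporter-dim cells, 843, 1037, 887 and 1840 in Sca1+ reporter-negative cells and 341, 391, 369 and 361 in Sca1- cells. Each Sca1+ reporter-negative array was above all 12 other arrays, and mouse 4 was the highest. In Sca1- cells this probe set stood near array background, where 3 of 4 arrays exceeded their highest control. In reporter-high and reporter-dim cells 4 of 4 arrays each exceeded theirs. The log2 difference to Sca1+ reporter-negative cells was -1.07 ± 0.19 for reporter-high and -1.44 ± 0.19 for reporter-dim cells, lower in 4 of 4 mice each. Sca1+ exceeded Sca1- reporter-negative cells by 1.58 ± 0.19, or 2.99-fold.

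A further Ebf2 probe set, 1449102_PM_at, separated the populations more widely. It read 278, 206, 205 and 245 in reporter-high cells, 209, 191, 203 and 195 in reporter-dim cells, 833, 1467, 1105 and 2011 in Sca1+ reporter-negative cells and 174, 159, 140 and 148 in Sca1- cells. On every reporter-dim and Sca1- array it did not exceed the highest control, so only bounds can be given there. Set against that control, Sca1+ reporter-negative cells were at least 3.90-fold brighter than reporter-dim cells and at least 3.63-fold brighter than Sca1- cells. The last, 1449101_PM_at, gave -0.84 ± 0.11 for reporter-high over Sca1+ reporter-negative cells.

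Ebf3, which like Ebf1 acts in bone marrow niche cells, read 830, 738, 840 and 814 in reporter-high cells, 782, 775, 836 and 795 in reporter-dim cells, 1328, 3016, 1657 and 3002 in Sca1+ reporter-negative cells and 815, 631, 448 and 524 in Sca1- cells. The reporter-positive populations were nearly level, with a difference of 0.01 ± 0.23 on the log2 scale. All 4 Sca1+ reporter-negative arrays lay above them, those of mice 2 and 4 the furthest. Reporter-high cells were lower than Sca1+ reporter-negative cells by a log2 difference of -1.39 ± 0.23, a 2.63-fold lower signal, and reporter-dim cells by -1.41 ± 0.23. Without the mouse 1 Sca1+ reporter-negative array these were -1.62 and -1.63. Sca1+ reporter-negative cells exceeded Sca1- cells by 1.84 ± 0.23. The ranges of Sca1- and reporter-positive cells overlapped.

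Prrx1 and Prrx2, the paired-related homeobox genes, went opposite ways between reporter-positive and Sca1+ reporter-negative cells. Prrx1 read 1133, 833, 1134 and 1171 in reporter-high cells, 931, 931, 1165 and 770 in reporter-dim cells, 1186, 4229, 2140 and 3187 in Sca1+ reporter-negative cells and 633, 396, 538 and 382 in Sca1- cells. Within the Sca1+ reporter-negative population, mouse 1 lay just above the reporter-positive arrays and the other 3 mice well above. The log2 difference to that population was -1.19 ± 0.30 for reporter-high and -1.36 ± 0.30 for reporter-dim cells, lower in 4 of 4 mice. Without the mouse 1 Sca1+ reporter-negative array these were -1.54 and -1.71, and without mouse 2 they were -0.81 and -1.09. Sca1+ exceeded Sca1- reporter-negative cells by 2.34 ± 0.30, or 5.08-fold, and only 3 of 4 Sca1- arrays exceeded their highest control. Reporter-high cells also exceeded Sca1- cells, by 1.15 ± 0.30, with ranges apart.

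Prrx2 read 1550, 1609, 1069 and 1395 in reporter-high cells, 1732, 1104, 1155 and 1376 in reporter-dim cells, 927, 1096, 981 and 805 in Sca1+ reporter-negative cells and 423, 380, 594 and 449 in Sca1- cells. The reporter-positive populations overlapped, Sca1+ reporter-negative cells were lower, and Sca1- cells were lowest in every mouse. Reporter-high cells exceeded Sca1+ reporter-negative cells by 0.55 ± 0.17, higher in 4 of 4 mice although 1 reporter-high array, that of mouse 3, fell within the range of the other group. The step from Sca1- to Sca1+ reporter-negative cells was larger, at 1.06 ± 0.17, and reporter-high cells exceeded Sca1- cells by 1.61 ± 0.17, or 3.05-fold.

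Of the Twist genes, which encode factors of head, limb and skin mesenchyme, Twist1 read 2352, 2114, 1662 and 1553 in reporter-high cells, 1613, 1718, 1313 and 1213 in reporter-dim cells, 906, 1249, 779 and 1047 in Sca1+ reporter-negative cells and 1383, 891, 766 and 901 in Sca1- cells. In each mouse the reporter-high array was the highest, and both reporter-negative populations overlapped, with a difference of 0.03 ± 0.19. Reporter-high cells exceeded Sca1+ reporter-negative cells by 0.95 ± 0.19, or 1.93-fold, and reporter-dim cells did so by 0.56 ± 0.19. Reporter-high exceeded reporter-dim cells by 0.38 ± 0.19, in 4 of 4 mice.

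Twist2 read 1783, 1534, 1351 and 1847 in reporter-high cells, 1314, 1078, 1142 and 1297 in reporter-dim cells, 850, 1024, 833 and 870 in Sca1+ reporter-negative cells and 709, 743, 597 and 460 in Sca1- cells. Its populations formed 4 steps with no overlap between neighbours, and the order was the same in all 4 mice. Reporter-high cells exceeded Sca1+ reporter-negative cells by 0.86 ± 0.14 and reporter-dim cells did so by 0.43 ± 0.14. Reporter-high exceeded reporter-dim cells by 0.43 ± 0.14, and Sca1+ exceeded Sca1- reporter-negative cells by 0.53 ± 0.14.

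Tcf21 read 18878, 20425, 14474 and 17153 in reporter-high cells, 20430, 18162, 13517 and 17553 in reporter-dim cells, 12384, 5337, 4936 and 7123 in Sca1+ reporter-negative cells and 11773, 3940, 5351 and 6438 in Sca1- cells. The reporter-positive populations shared one range and the reporter-negative populations another, and within each reporter-negative population the mouse 1 array was the highest by a wide margin. Reporter-high cells exceeded Sca1+ reporter-negative cells by 1.34 ± 0.31, or 2.53-fold, and reporter-dim cells did so by 1.31 ± 0.31. Without the mouse 1 Sca1+ reporter-negative array these differences were 1.62 and 1.59. Within each reporter class the differences were small, at 0.03 ± 0.31 for reporter-high over reporter-dim cells and 0.14 ± 0.31 for Sca1+ over Sca1- reporter-negative cells. The latter was -0.14 without the mouse 1 Sca1+ reporter-negative array and 0.43 without the mouse 1 Sca1- array. Gli1, for comparison, averaged 2611 ± 321 in reporter-high cells, 2323 ± 322 in reporter-dim cells, 1104 ± 299 in Sca1+ reporter-negative cells and 921 ± 318 in Sca1- cells (SD, n = 4 each).

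**Figure D2:**
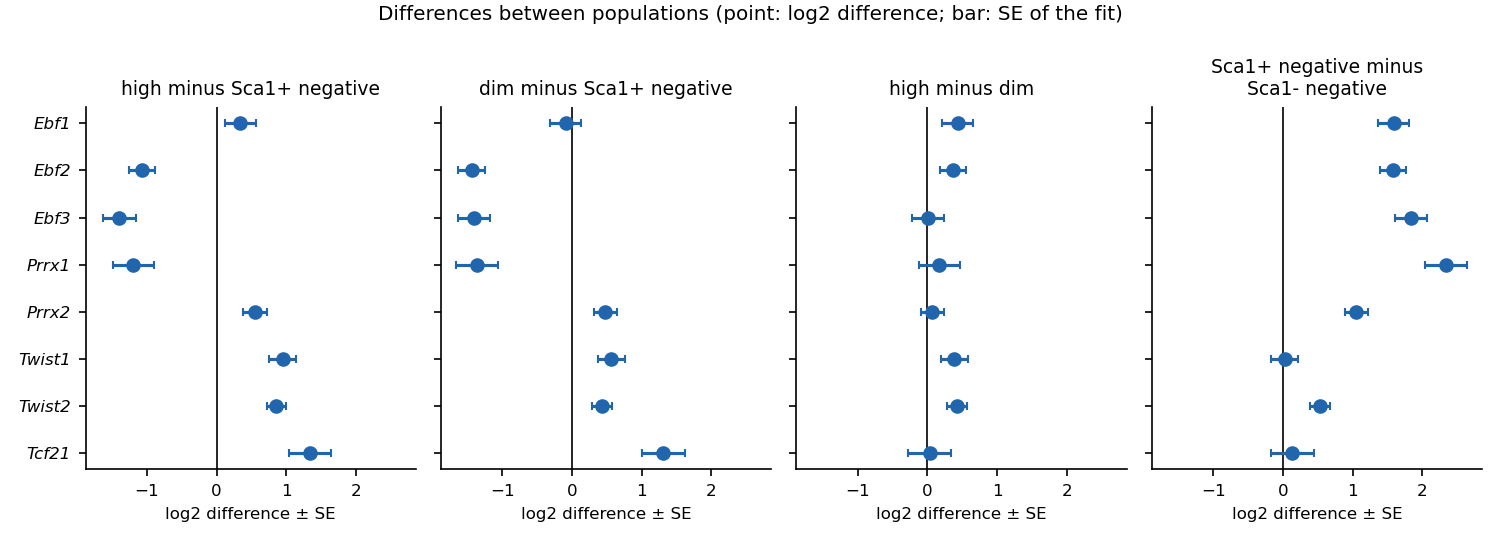
Log2 difference of each gene in 4 comparisons, with the standard error of the fit; values right of 0 are higher in the population named first. Ebf2, Ebf3 and Prrx1 lie left of 0 in both comparisons of reporter-positive with Sca1+ reporter-negative cells and right of 0 for Sca1+ over Sca1- cells.

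Counts of the 8 genes past an adjusted p of 0.05 (limma, Benjamini-Hochberg over 17097 genes) follow beside the share of all genes past it, and nothing is read from them because these contrasts were known when the genes were selected. Reporter-high against Sca1+ reporter-negative cells, which sets bright Gli1 reporter against none, had 4 members higher and 3 lower, where 17.0% of all genes were higher and 13.9% lower. Reporter-dim against Sca1+ reporter-negative cells had 1 higher and 3 lower, with 0.901% and 0.608% of all genes. Reporter-high against reporter-dim cells, the comparison of reporter brightness, had 0 and 0 with limma, with 0.485% and 0.930% (2887 of all genes had an unadjusted p under 0.05). Sca1+ against Sca1- reporter-negative cells, which differ by the Sca1 gate, had 5 higher and 0 lower, with 1.22% and 1.23%. Reporter-high against Sca1- cells had 7 and 0, with 19.2% and 16.7%, and reporter-dim against Sca1- cells had 5 and 0, with 7.96% and 5.89%. The comparisons share populations, so their values are not independent of one another. Leaving out all arrays of mouse 2 gave 5, 0, 0, 4, 6 and 3 members past the threshold in the same order of comparisons, where 2734, 10, 0, 155, 3838 and 614 of all 17097 genes were past it (limma; 1784 genes in the second comparison and 2096 in the third had an unadjusted p under 0.05). With all arrays these were 5276, 258, 242, 419, 6143 and 2368 genes. No member that was past it with all arrays changed its sign without mouse 2. With the mouse label as a block, Twist1 was also past the threshold in reporter-dim cells, at 0.56 over Sca1+ reporter-negative and 0.59 over Sca1- cells, and Ebf2 no longer was in reporter-high against Sca1- cells, at 0.51.

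Markers of other cells moved with the reporter. The mean log2 signal of the epithelial list was 11.81 ± 0.93 in reporter-high cells, 13.53 ± 0.48 in reporter-dim cells, 14.23 ± 0.26 in Sca1+ reporter-negative cells and 14.19 ± 0.43 in Sca1- cells (SD, n = 4 each). All 17 measured epithelial genes fell in reporter-high relative to Sca1+ reporter-negative cells, and their summed signal ran from 43879 to 179518 against 302941 to 441861. Endothelial genes fell too, 9 of 14 with 1 rising, summing to 14748 to 16100 against 17960 to 26310, and of 9 mesothelial genes 5 fell, summing to 4091 to 6485 against 8643 to 12586. Interstitial cell of Cajal genes fell in 3 of 5 cases, with a median log2 difference of -1.22, summing to 19357 to 24103 in reporter-high cells and 24688 to 31232 in Sca1+ reporter-negative cells. Smooth muscle genes went the other way, 7 of 9 rising, with sums of 94222 to 145691 in reporter-high and 28401 to 74025 in Sca1+ reporter-negative cells. Of 12 other leukocyte genes 4 fell, summing to 9422 to 12283 against 12251 to 16103, and 0 of 6 pericyte genes passed with limma (1 at an unadjusted p under 0.05). With the epithelial mean as a covariate, the differences of reporter-high from Sca1+ reporter-negative cells were 0.12 for Twist1, 0.61 for Twist2, 0.08 for Tcf21, 0.13 for Prrx2, -1.0 for Ebf2, -1.39 for Ebf3 and -0.80 for Prrx1. None of the 8 members was then past the threshold, against 7 without the covariate, and of all 17097 genes 2 were past it, against 5276; 1464 genes had an unadjusted p under 0.05 in that fit. For Ebf1 the sign turned, at -0.16 with the covariate. In reporter-dim against Sca1+ reporter-negative cells the 17 epithelial genes were all lower, by log2 differences of -1.04 to -0.27. None of them passed the threshold with limma, and 4 had an unadjusted p under 0.05. In that comparison the covariate left -1.42 for Ebf2, -1.41 for Ebf3, -1.25 for Prrx1 and 0.94 for Tcf21. Genes past the threshold numbered 42 of 17097 with the covariate, against 258 without it.

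The reporter-negative populations had nearly equal epithelial means, so the covariate could move the differences between them only little. With it, Sca1+ exceeded Sca1- cells by 1.60 for Ebf1, 1.58 for Ebf2, 1.84 for Ebf3, 2.34 for Prrx1 and 1.06 for Prrx2. Other markers differed between them. Pericyte genes summed to 7702 to 15293 in Sca1+ and 26122 to 54608 in Sca1- cells, and 1 of 6 fell. Of the interstitial cell of Cajal genes 3 of 5 fell, summing to 24688 to 31232 in Sca1+ and 37800 to 53943 in Sca1- cells, and of the enteric glia and neuron genes 3 of 8 fell, summing to 3782 to 4709 and 5421 to 10070. B cell genes bear on the EBF family, since Ebf1 is a B cell factor: Pax5 averaged 580 ± 43, 580 ± 79, 533 ± 40 and 569 ± 101 over reporter-high, reporter-dim, Sca1+ and Sca1- reporter-negative cells, and Cd79a 610 ± 48, 614 ± 14, 591 ± 18 and 564 ± 46 (SD, n = 4 each). One of 6 B and plasma cell genes, and one of 6 adipocyte genes, fell in reporter-high against Sca1+ reporter-negative cells. The B and plasma cell genes summed to 2388 to 3371 against 4510 to 13169, and the adipocyte genes to 11606 to 21593 against 22177 to 29613. Adipocyte genes bear on Ebf2, and Adipoq and Lep were at array background in all 4 populations. Lpl, which encodes lipoprotein lipase, was the 1 of 6 that rose in Sca1+ over Sca1- reporter-negative cells, by 1.24 ± 0.30 (limma adjusted p = 0.0402), and the list summed to 22177 to 29613 against 10342 to 26024. The part of these markers in the members' differences was otherwise not tested.

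Scaling each array to its hybridization controls, which are spiked in before hybridization, moved the median of all genes by 0.38 in reporter-high against Sca1+ reporter-negative cells, 0.32 against reporter-dim and 0.43 against Sca1- cells. Reporter-dim against Sca1- cells moved by 0.12. Genes past the threshold in reporter-high against Sca1+ reporter-negative cells then split into 10260 higher and 885 lower, against 2900 and 2376 without that scaling. Ebf2, Ebf3 and Prrx1 still gave differences of -0.69, -1.01 and -0.81 in that comparison of reporter-high with Sca1+ reporter-negative cells, and the others kept a positive sign. The ratio of 3′ to 5′ Actb control signals was 1.24 ± 0.03, 1.15 ± 0.07, 1.11 ± 0.01 and 1.11 ± 0.05 over reporter-high, reporter-dim, Sca1+ and Sca1- reporter-negative cells (SD, n = 4 each). Its part in the differences was not tested.

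Probe sets of one gene differed in the size of their steps and, for populations close to one another, in order. Pearson r over the 16 arrays was 0.960 to 0.980 among the 3 Ebf1 probe sets, 0.895 to 0.962 among those of Ebf2, 0.787 to 0.857 among those of Ebf3 and 0.868 to 0.981 among the 5 of Prrx1. The arrays share their populations, so these are descriptions. Setting reporter-high over Sca1+ reporter-negative cells, Ebf3 differed by -1.39 at 1428349_PM_s_at, -0.43 at 1452751_PM_at and -0.59 at 1460666_PM_a_at, a range that the highest probe set alone does not show. Prrx1 differed by -1.58 at 1432129_PM_a_at, -1.20 at 1425526_PM_a_at, -1.19 at 1425528_PM_at and -0.56 at 1425527_PM_at. At 1452751_PM_at, 1460666_PM_a_at and 1425527_PM_at the ranges of both populations overlapped, and reporter-high cells were lower in 3 of 4 mice. The fifth Prrx1 probe set, 1439774_PM_at, was at array background in all 4 populations and gives no fold. Ebf1 differed by 0.32 to 0.38 over its probe sets in that comparison, and by 1.15 to 1.59 for Sca1+ over Sca1- reporter-negative cells.

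**Figure D3:**
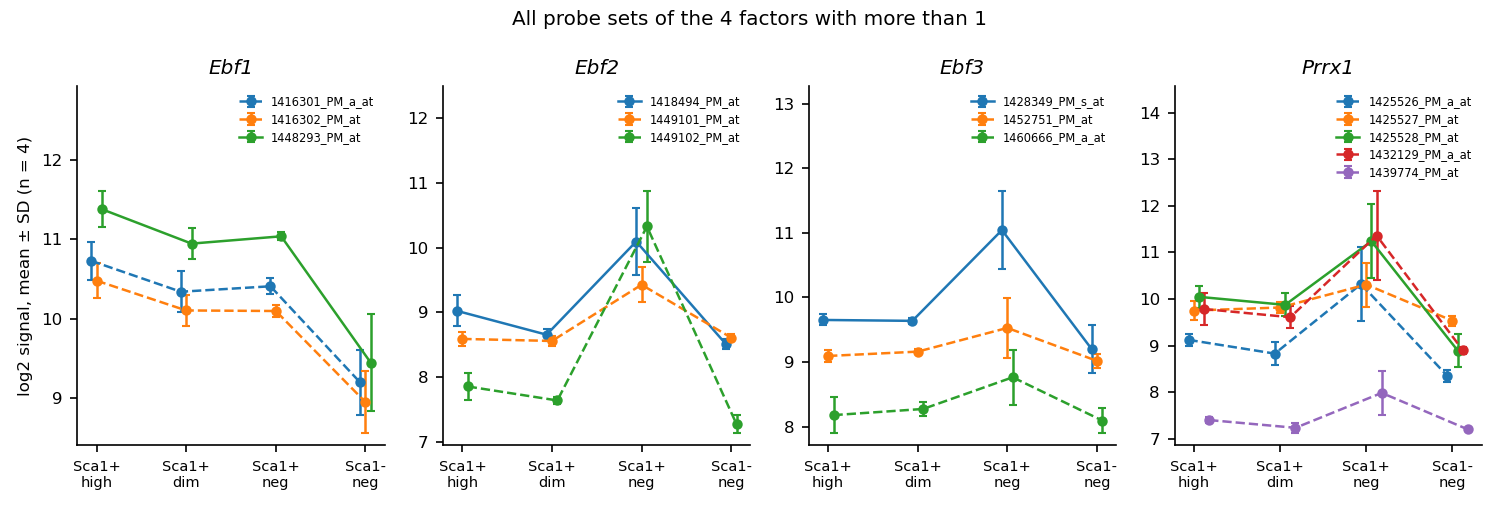
Mean log2 signal ± SD of 4 arrays for every probe set of the 4 genes with more than 1, by population; the solid line is the highest probe set. All 10 probe sets of Ebf2, Ebf3 and Prrx1 that were above background peak in Sca1+ reporter-negative cells, and all 3 of Ebf1 are lowest in Sca1- cells.

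Across the 16 arrays, Ebf3 followed Ebf2 with r = 0.91 and Prrx1 with r = 0.93, and Prrx1 followed Ebf2 with r = 0.86. Twist2 followed Prrx2 with r = 0.87 and Ebf1 with 0.80, and Tcf21 followed Twist1 with 0.81. Among paralogs, Twist1 and Twist2 had r = 0.80 and Prrx1 and Prrx2 0.45, and Ebf1 had 0.43 with Ebf2 and 0.48 with Ebf3. Gli1 was closest to Tcf21, at 0.92, followed by Twist2 at 0.85 and Twist1 at 0.83, and it had -0.23 with Ebf2 and -0.18 with Ebf3. Such values were not particular to Gli1. Pdpn, whose product gp38 gated all populations, had 0.92 with Tcf21, 0.88 with Twist2 and 0.82 with Twist1. It had 0.86 with Ebf1 and 0.84 with Prrx2, against 0.27 with Prrx1, 0.09 with Ebf3 and 0.03 with Ebf2. Epcam had -0.88 with Twist1, -0.78 with Twist2 and -0.77 with Tcf21, against 0.19 with Ebf2 and 0.25 with Ebf3. These 16 points share 4 mice, 4 populations and their cell make-up, and no test is attached to them.

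**Figure D4:**
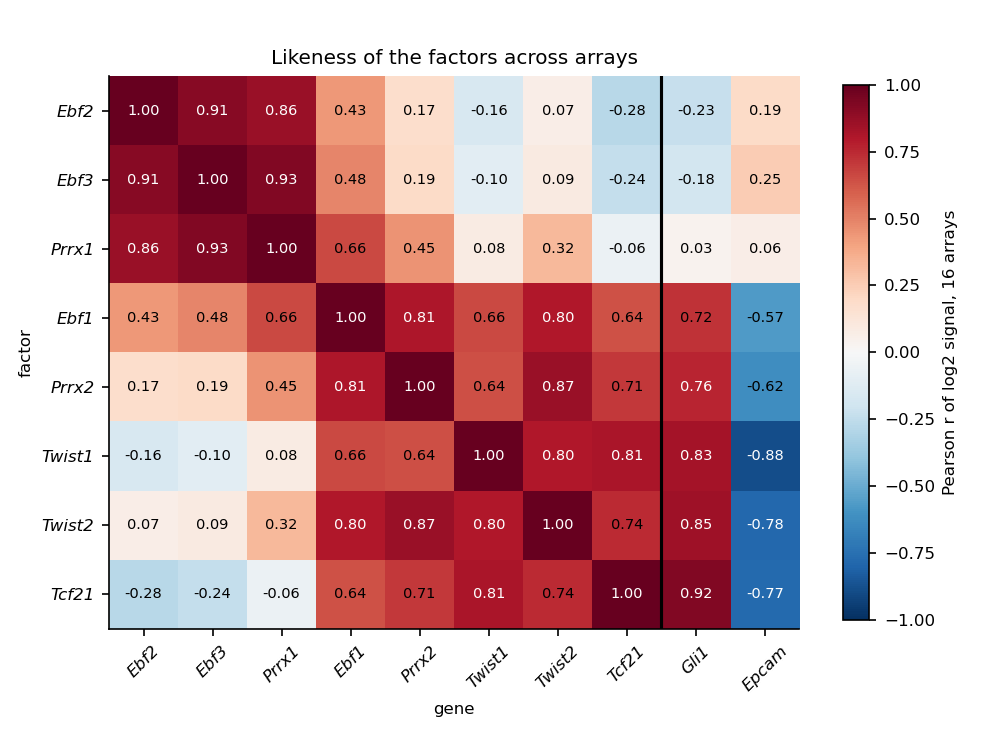
Pearson r of log2 signal over 16 arrays between the 8 genes, with Gli1 and Epcam in the last columns. Ebf2, Ebf3 and Prrx1 form one block at 0.86 to 0.93, and Prrx2, Twist1, Twist2 and Tcf21 another at 0.64 to 0.87, in which Gli1 is high and Epcam negative. Ebf1 has 0.64 to 0.81 with the genes of the latter block and 0.43 to 0.66 with those of the former.

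By the same measure, among 10557 genes that are no members, Ifi204, an interferon-inducible gene, was the closest to Ebf2 (r = 0.93), Ebf3 (0.91) and Prrx1 (0.93). It averaged 531 in reporter-high cells, 451 in reporter-dim cells and 1099 in Sca1+ reporter-negative cells. Ptx3, which encodes a pentraxin of innate immunity, came second for Ebf2 (0.92), and averaged 1221, 901 and 6223 in the same order. C2, a complement component, came second for Ebf3 (0.90), followed by Slfn5 (0.90). Ildr2 came next for Ebf2 (0.91), and Ctsh, a lysosomal cathepsin (0.91), and Cpxm1 (0.90) followed for Prrx1. The closest to Ebf1 were Serpinf1, a secreted serpin (0.98), Aebp1 (0.97) and Scara3 (0.97). The closest to Tcf21 were Slco2b1, an organic anion transporter (0.99), Vipr2, a receptor for vasoactive intestinal peptide (0.99), and Lrrc61 (0.97). Twist2 had Ftsj1 (0.96), the hyaluronan synthase gene Has1 (0.94) and Vat1 (0.94), Twist1 had Stmn4 (0.95), Dcbld2 (0.94) and Kpnb1 (0.94), and Prrx2 had Dtnbp1 (0.94), Txndc5 (0.93) and Clec3b (0.93).

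Partners, related factors and linked genes were set beside the members, 78 measured of 86 listed. The lists were chosen with earlier results of these data known, so their counts and medians are a description. In reporter-high against Sca1+ reporter-negative cells 40 rose and 3 fell (limma, adjusted p over all genes), where 17.0% of all genes were higher and 13.9% lower. Their median log2 difference was 0.48, against -0.0020 over all genes. A list of 17 shared fibroblast genes, such as Thy1 and Pdgfra, had a median of 0.61, with 11 rising and 0 falling. Of the members, Ebf1, Ebf2, Ebf3, Prrx1 and Prrx2 lay below, and Tcf21, Twist1 and Twist2 above, the median of the fibroblast list. Of 10 EBF partners and linked genes 6 rose and 1 fell. Zfp423 and Zfp521, related zinc finger proteins that bind EBF factors, rose by 1.38 ± 0.21 (limma adjusted p = 0.000354) and 1.23 ± 0.27 (adjusted p = 0.00297). Lepr, the leptin receptor and a marker of Ebf-expressing marrow stroma, rose by 1.52 ± 0.45 (adjusted p = 0.0176).

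Partners and inhibitors of the basic helix-loop-helix factors were mixed, 3 of 13 rising and 1 falling. Id1, which lacks a DNA-binding domain and sequesters E proteins, fell by a log2 difference of -1.12 ± 0.17 (limma adjusted p = 0.000409), while Id3, of the same family, rose by 0.57 ± 0.20 (adjusted p = 0.0404). Tcf4, an E protein that dimerizes with Twist factors, rose by 0.95 ± 0.26 (adjusted p = 0.0112). Of 5 Snail and Zeb genes, repressors that share E-box sites with Twist, 4 rose, among them Zeb2 by 1.28 ± 0.25 (adjusted p = 0.00170) and Zeb1 by 0.97 ± 0.27 (adjusted p = 0.0142).

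Of 21 other homeobox and T-box genes 7 rose and 0 fell, led by the hindlimb factor Pitx1, at 9204 ± 964 in reporter-high and 3020 ± 1107 in Sca1+ reporter-negative cells (1.66 ± 0.26 on the log2 scale, limma adjusted p = 0.000390). Isl1 rose by 1.34 ± 0.22 (adjusted p = 0.000573) and Tbx2 by 1.33 ± 0.26 (adjusted p = 0.00147). Among 20 other mesenchymal factors 12 rose and 1 fell. The one that fell was Gata6, a zinc finger factor also present in gut epithelium, at 1046 ± 337 in reporter-high and 4066 ± 816 in Sca1+ reporter-negative cells (-1.99 ± 0.24, adjusted p = 0.000159). Of 9 genes linked to Twist and Prrx factors in other tissues 8 rose, with Fap, a protease of activated fibroblasts, at 1.23 ± 0.29 (adjusted p = 0.00508).

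Between Sca1+ and Sca1- reporter-negative cells 3 of the 78 listed genes rose and 4 fell, with a median of 0.13. Of all genes 1.22% were higher and 1.23% lower. Msc, which encodes the basic helix-loop-helix repressor musculin, rose by 0.84 ± 0.19 (limma adjusted p = 0.0310) and Fn1, fibronectin, by 0.73 ± 0.18 (adjusted p = 0.0444). Heyl, a Notch target, fell by a log2 difference of -1.32 ± 0.30 (adjusted p = 0.0315), Pbx3 by -1.15 ± 0.17 (adjusted p = 0.00156), Nkx3-2 by -1.05 ± 0.14 (adjusted p = 0.000628) and Etv1, a factor of interstitial cells of Cajal, by -1.46 ± 0.25 (adjusted p = 0.00391). Nr2f1 rose too, but did not exceed background in Sca1- cells, and was at least 1.05-fold brighter in Sca1+ cells (adjusted p = 0.0469). The median over the 17 shared fibroblast genes was 0.48, with 1 rising, against 1.58 to 2.34 for Ebf1, Ebf2, Ebf3 and Prrx1 at their highest probe sets. The remaining members were at 1.06 for Prrx2, 0.53 for Twist2, 0.14 for Tcf21 and 0.03 for Twist1, the last 2 below that median. Other probe sets varied. Ebf3 gave 0.51 at 1452751_PM_at, with overlapping ranges, and at least 1.23-fold at 1460666_PM_a_at, which was at background in Sca1- cells. Prrx1 gave 0.78 at 1425527_PM_at, 1.97 at 1425526_PM_a_at and 2.46 at 1432129_PM_a_at. Ebf2 gave 0.82 at 1449101_PM_at and at least 3.63-fold at 1449102_PM_at.

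**Figure D5:**
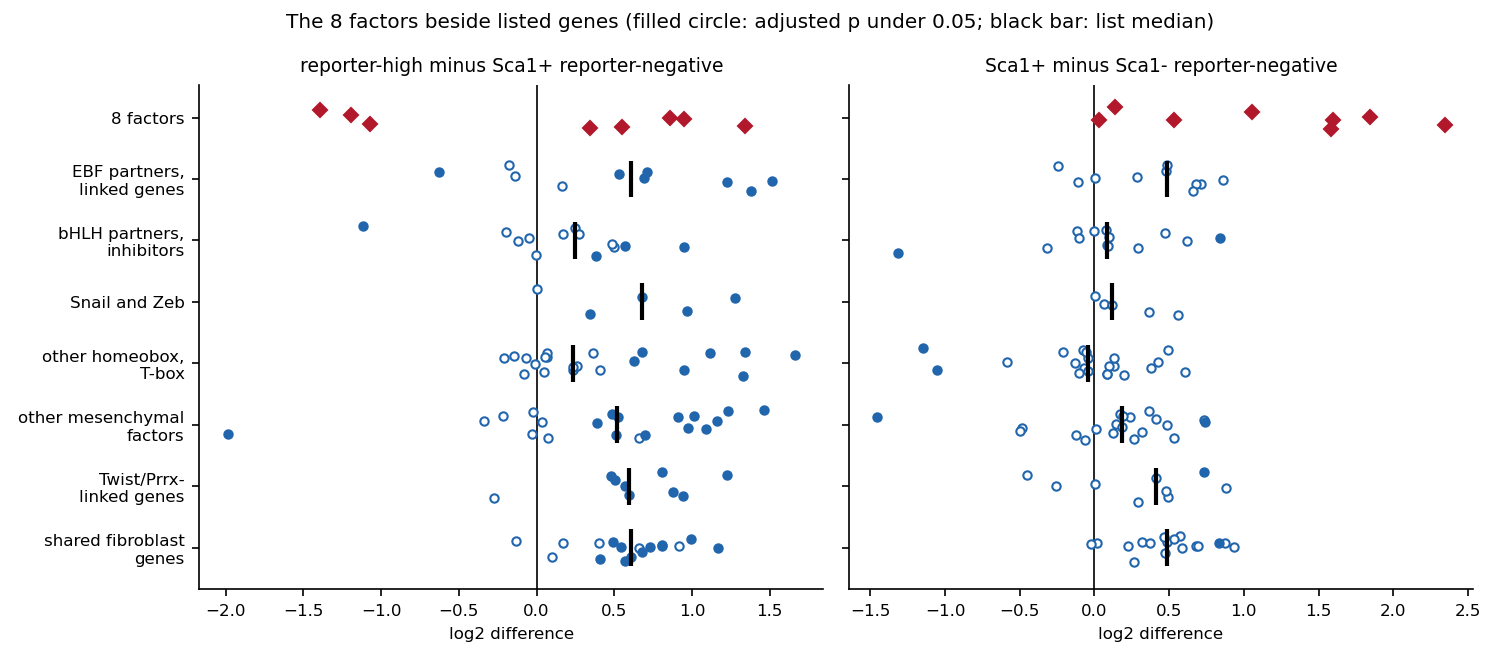
Log2 differences of the 8 genes (red diamonds) and of listed genes (circles, filled where the adjusted p is under 0.05) in 2 comparisons, with a bar at each list's median. Ebf2, Ebf3 and Prrx1 lie at -1.07 to -1.39 on the left, where most listed genes are above 0, and 5 members lie above 1 on the right.

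In reporter-dim against Sca1+ reporter-negative cells 6 of the 78 listed genes rose and 1 fell, where 0.901% of all genes were higher and 0.608% lower. Pitx1 rose by 1.15 ± 0.26 (limma adjusted p = 0.0427), Isl1 by 0.97 ± 0.22 (adjusted p = 0.0458) and Nkx2-3, a gut mesenchyme homeobox factor, by 0.74 ± 0.15 (adjusted p = 0.0334), while Gata6 fell by a log2 difference of -1.10 ± 0.24 (adjusted p = 0.0427). Between reporter-high and reporter-dim cells 0 of 78 passed the threshold with limma, and 15 had an unadjusted p under 0.05. Of all genes 0.485% passed as higher and 0.930% as lower. Against Sca1- cells 44 rose and 12 fell in reporter-high cells, where 19.2% of all genes were higher and 16.7% lower. In reporter-dim cells 34 rose and 9 fell, with 7.96% and 5.89% of all genes. Zfp423 rose in both, by 2.09 ± 0.21 in reporter-high (adjusted p = 9.91e-06) and 1.45 ± 0.21 in reporter-dim cells (adjusted p = 0.000428).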

How the data were processed

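RNA of 4 sorted populations from 4 mice was measured on 16 Affymetrix arrays. The deposited values are a score per probe set: the authors centred and scaled each probe set over the 16 arrays, and per the submitters' processing notes the software was Affymetrix Expression Console 1.1. The sources used here do not state the summary method, background correction or normalization. Whole-number signals were recovered from each score by searching for the integers that reproduce it, for 45141 of 45141 probe sets within 1e-09, with signals from 58 to 155937. The search recovered 1000 of 1000 simulated probe sets. Signals are therefore on the authors' linear scale, and differences between arrays depend on their unstated normalization.

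Each gene was represented by the probe set with the highest mean. Differences were fitted on log2 signal with limma 3.58.1 in R 4.3.3 (Python 3.11.15 for the rest), with 1 mean per population, and p-values were adjusted by Benjamini-Hochberg over 17097 genes at a threshold of 0.05. The fit was tested on simulated data. At array background means not above the highest nonspecific control on any array of a population; a bound then sets the brighter group against that control. Members and lists were chosen with earlier results of these data known. Named beside them were up to 3 genes per list with the largest differences past the threshold and a population mean above the median signal of 674, and the 3 genes most correlated with each member among those above it. Pax5, Cd79a, Adipoq, Lep and Lpl were named outside this rule, after their values were seen. Per the labels each mouse gave all 4 populations, which would pair the samples, but Xist on the arrays labelled mouse 2 does not match 1 animal. Deviations of same-mouse arrays correlated at 0.241 on average, and at -0.0594 for mouse 2, against -0.0807 between mice. Alternatives were mouse as a block, quantile normalization, scaling to hybridization controls, all probe sets, a filter on dim genes, an epithelial covariate, array weights, and leaving out each mouse or array. The number of arrays limits the precision.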

Additional observations from a re-analysis of the deposited data

Results flagged for a closer look

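Of 72 sets of 4 arrays (18 probe sets in 4 populations), 2 held an array far from the others, where chance alone gives about 1 in 20. At 1448293_PM_at, Ebf1 in Sca1- reporter-negative cells read 1315 in mouse 1 against 533 to 588 in the other 3 mice. At 1425528_PM_at, Prrx1 in reporter-high cells read 833 in mouse 2 against 1133 to 1171 in the other 3 mice. The other probe sets of both genes were not flagged.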

How the results depend on the processing

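None of the 28 member differences past the threshold changed sign in any of 27 alternative settings. With the epithelial covariate, the members past the threshold numbered 0 of 8 in reporter-high against Sca1+ reporter-negative cells (7 without it), 0 in reporter-high against Sca1- cells (7) and 2 in reporter-dim against Sca1+ reporter-negative cells (4); of all 17097 genes 2 (5276), 175 (6143) and 42 (258) passed. The listed genes then numbered 0 (43 without it), 2 (56) and 0 (7), and 12 in Sca1+ against Sca1- reporter-negative cells (7), where 629 of all genes passed (419). The covariate takes 1 degree of freedom and varies with the population. With the mouse pairing as a replicate block, Twist1 passed in both comparisons of reporter-dim with reporter-negative cells and Ebf2 no longer did in reporter-high against Sca1- cells. The listed genes then numbered 26 in reporter-dim against Sca1+ reporter-negative cells, 6 in reporter-high against reporter-dim cells (0 without the block) and 11 in Sca1+ against Sca1- cells; the block moved no other count by over 1.5 times. Scaling to hybridization controls gave 65 listed genes in reporter-high against Sca1+ reporter-negative cells, 16 in reporter-dim against Sca1+ reporter-negative cells, and 45 listed genes and 4 members in reporter-high against reporter-dim cells, where 7163 of all genes (41.9%) passed. Array weights gave 29 listed genes in reporter-dim against Sca1+ reporter-negative cells, 6 and 1 member in reporter-high against reporter-dim cells, and 18 in Sca1+ against Sca1- cells. Testing all probe sets gave 4 in reporter-dim against Sca1+ reporter-negative cells, and quantile normalization and the filter on dim genes gave 2 each in reporter-high against reporter-dim cells. Leaving out a mouse or an array gave 5 to 8 members and 22 to 48 listed genes in reporter-high against Sca1+ reporter-negative cells, 0 to 5 and 0 to 30 in reporter-dim against Sca1+ reporter-negative cells, 0 to 1 and 0 to 6 in reporter-high against reporter-dim cells, 4 to 6 and 1 to 21 in Sca1+ against Sca1- cells, 6 to 7 and 43 to 58 in reporter-high against Sca1- cells, and 3 to 6 and 16 to 49 in reporter-dim against Sca1- cells. In reporter-dim against Sca1+ reporter-negative cells, members numbered 0 without mouse 2, 1 without mouse 3 or mouse 4, and 2 without any of 9 single arrays: reporter-high and reporter-dim arrays of mice 1, 2 and 4, and Sca1+ reporter-negative arrays of mice 2, 3 and 4. Without the Sca1- array of mouse 1, 1 member passed in reporter-high against reporter-dim cells, and without mouse 2 or mouse 4, 3 passed in reporter-dim against Sca1- cells. The cause of these changes was not tested. Without mouse 2 the count of all genes past the threshold fell as well, as given above. All-gene counts for the other left-out mice and arrays are not given here, so nothing about the members is read from these counts. Signals near array background, as for Ebf2 and Prrx1 in Sca1- cells, limit the differences that can be measured.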
